A study of Drosophila melanogaster with 2 samples.

Results

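At 7 Drosophila melanogaster genes, cbt, Lk6, larp, tara, spen, Alh and pont, the ranked ChIP-seq peak lists for the peb protein held strong peaks that the matching thresholded lists lacked. The genes are 7 of 13968 protein-coding genes. They were selected on the peak values themselves: a peak counted when its irreproducible discovery rate (IDR) score was 830 or more in a ranked list, when the thresholded list made from that ranked list had no peak with the same coordinates, and when its summit lay in the gene or within 5000 bp of it. Such a peak is called absent here, and a ranked peak of the same score that the thresholded list holds is called retained. This rule was met at 132 of the 13968 protein-coding genes in some list. The 7 are a part of these, chosen with earlier results of these data known. The scores, signals and absence of their peaks are therefore given as a description, with no test.

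The chromatin came from whole embryos of 0 to 24 h of a strain named peb-GFP, which carries an insertion targeting peb and expresses a peb-eGFP fusion protein. It was sonicated to 200 to 800 bp and precipitated with an antibody against GFP. There were 2 biological replicates, all of the same strain and age, so there was 1 group and no comparison of conditions. Sex was not recorded, the age range spans most of embryonic development, and all tissues were mixed. More cells with peb at a site and more peb per cell cannot be told apart in such material. A pair of lists, 1 ranked and 1 thresholded, came from each replicate, and both replicates together gave a conservative and an optimal pair, making 4 ranked lists and 8 lists in all. The headers name 1 further source file for every thresholded list that they do not name for the ranked lists, without saying what it holds. Whether the absent peaks were removed with it was not tested, so they are described as entries of the ranked lists and not as places bound by peb.

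Peb, also called hindsight, is a zinc finger transcription factor and a homologue of mammalian RREB1. It is known for its part in the amnioserosa during germ band retraction and dorsal closure, and in the tracheae, the gut and the retina. The IDR ranks peaks by how reproducibly they rank in paired sets of data, and a high score stands for a low rate. A score of 830 corresponds to a global IDR of 0.01, and scores are capped at 1000. The signal is the authors' own value for each peak. It orders peaks within a list, and the sources used here state no scale shared between lists.

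The 7 genes fall into groups by what their products do. Cbt (cabut) is a zinc finger transcription factor needed for dorsal closure. Tara (taranis) is a SERTA-domain protein that interacts with trithorax group genes, Alh (Alhambra) is a PHD finger protein and the homologue of mammalian AF10, and pont (pontin) is an AAA+ ATPase of chromatin remodelling complexes. Spen (split ends) is a nuclear RNA-binding protein with a SPOC domain. Lk6 is the homologue of the mammalian Mnk kinases, which phosphorylate the translation factor eIF4E, and larp is a La-related protein that binds mRNA. On dm6, cbt lies at chr2L:476446-479688 on the minus strand and spen at chr2L:159032-203397 on the plus strand. Lk6 at chr3R:11750931-11764457, larp at chr3R:28318162-28336440 and Alh at chr3R:7094596-7124185 are on the minus strand. Tara at chr3R:16225651-16260329 and pont at chr3R:10262123-10263899 are on the plus strand.

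The DNA under the strongest absent peaks is shown because these places are in the ranked lists and not in the thresholded ones. Each sequence runs from 50 bp before to 50 bp after the summit of the joint optimal list, on the RefSeq dm6 assembly. Capitals mark a match to one of 6 searched patterns on either strand, so that the capitals may show the reverse complement of a pattern. The patterns were GAGAG, the core of GAGA factor sites, CGATA with the longer element TATCGATA, the E-box CACGTG, the dinucleotide repeat CACACACA and the core promoter element GGTCACACT. The spen sequence is not printed.
cbt site 3 (chr2L:481050-481150, plus strand): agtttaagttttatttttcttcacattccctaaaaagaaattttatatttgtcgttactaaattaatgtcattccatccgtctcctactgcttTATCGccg
Lk6 site (chr3R:11761000-11761100, plus strand): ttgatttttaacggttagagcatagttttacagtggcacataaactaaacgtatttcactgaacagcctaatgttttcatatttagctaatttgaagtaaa
larp site (chr3R:28326546-28326646, plus strand): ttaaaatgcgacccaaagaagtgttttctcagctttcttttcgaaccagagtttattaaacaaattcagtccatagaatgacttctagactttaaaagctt
tara site 1 (chr3R:16224470-16224570, plus strand): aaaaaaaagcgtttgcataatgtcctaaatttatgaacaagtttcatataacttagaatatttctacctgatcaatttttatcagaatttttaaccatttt
tara site 4 (chr3R:16236935-16237035, plus strand): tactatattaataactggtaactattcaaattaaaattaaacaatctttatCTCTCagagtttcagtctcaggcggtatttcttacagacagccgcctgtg
Alh site (chr3R:7108963-7109063, plus strand): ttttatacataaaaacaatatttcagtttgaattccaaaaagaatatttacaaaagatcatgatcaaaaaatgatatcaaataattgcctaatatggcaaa
pont site 1 (chr3R:10261945-10262045, plus strand): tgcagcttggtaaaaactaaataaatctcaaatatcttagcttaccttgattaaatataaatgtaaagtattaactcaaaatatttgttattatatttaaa
Among these 7 windows 1 matched CGATA (cbt site 3), 1 matched GAGAG (tara site 4) and the other windows held none of the patterns. GC content ran from 19.8% at pont site 1 to 33.7% at tara site 4, with 30.7% at cbt site 3.

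The absent peaks at the 7 genes merged into 18 sites. Of these, 12 were absent from the thresholded list in all 4 pairs, 2 in 3 pairs and 4 in 2 pairs. No thresholded peak of any list overlapped any of the 18 sites by 1 bp or more. The same held for nearly all absent peaks, since only 1 of the 68 in the optimal list over the genome overlapped one. All 18 had a ranked peak in both replicates. The summits lay in an intron of the listed gene at 10 sites, in a 5′ UTR at 1 site and outside the listed gene at 7 sites. A transcription start site (TSS) of some protein-coding gene lay within 1000 bp at 7 sites, and one of the listed gene at 5 of them. Beside this, 32 of all 67 absent peaks of the optimal list on the main chromosomes lay within 1000 bp of a TSS of some protein-coding gene.

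The number of absent peaks at the 7 genes was 13 of 19 strong ranked peaks in replicate 1, 17 of 23 in replicate 2, and 17 of 26 in each joint list. Over the whole genome, the absent share of strong ranked peaks was 2.34% in replicate 1 (34 of 1452, exact binomial 95% interval 1.63 to 3.26). It was 2.47% in replicate 2 (52 of 2106, 1.85 to 3.23), 2.54% in the conservative list (70 of 2759, 1.98 to 3.19) and 2.33% in the optimal list (68 of 2913, 1.82 to 2.95). These intervals cover the counting of peaks only and treat peaks as independent. Many absent peaks were neighbours: 47 of the 68 in the optimal list lay in runs of 2 or more with no retained peak between them. Counted by gene, an absent peak lay at 0.437% of protein-coding genes in replicate 1, 0.501% in replicate 2, 0.773% in the conservative list and 0.802% in the optimal list, and all 7 listed genes were among them in each list. The genes were picked for this, so nothing is read from the difference between their share and that of the genome.

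Some absent peaks were among the strongest of the ranked lists. Among the 10 strongest peaks by signal 1 was absent in each of the 4 ranked lists, and it was the same site, at cbt. Among the 100 strongest, 3 were absent in replicate 1, all of them at listed genes, and 5 were absent in each of the other lists, with 4 of the 5 at listed genes. Beside these counts, the absent share of all strong ranked peaks was 2.33% to 2.54% across the lists. The listed genes were selected for absent peaks, so nothing is read from their part in these counts. In the optimal list the 17 absent peaks at the 7 genes had a median signal of 117, with a range from 20.8 to 1028. The 51 absent peaks elsewhere had a median of 63.6 (8.47 to 320), and the 2845 retained peaks a median of 73.6. The 17 thus spread over the range of the retained peaks, and 12 of them lay above the retained median. All 68 absent peaks of the list together had a median of 71.5. The 7 genes were chosen with earlier results of these data known. Nothing is therefore read from how the signals of the 17 compare with the others.

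**Figure D1:**
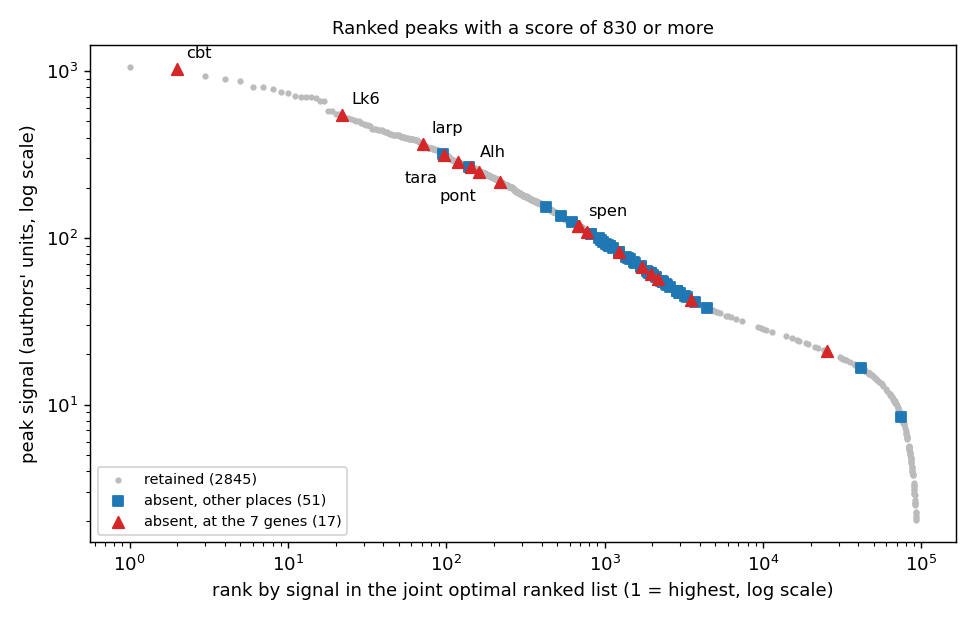
Signal against rank for ranked peaks with a score of 830 or more in the joint optimal list, both on log scales. Triangles are the 17 absent peaks at the 7 genes, squares the 51 absent peaks elsewhere and grey points the 2845 retained peaks. The names mark the strongest absent peak of each gene, from cbt at rank 2 to spen at rank 686.

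The strongest absent site lay upstream of cbt. Its peak, at chr2L:480938-481245 in the optimal list, had a signal of 483 in replicate 1, 552 in replicate 2 and 1028 in both joint lists. It ranked 1 of 68609 peaks in replicate 1, 2 of 49814 in replicate 2, 2 of 89431 in the conservative list and 2 of 92933 in the optimal list. The summit was 1412 bp upstream of the cbt TSS and inside an intron of the neighbouring gene ush (u-shaped, a cofactor of GATA factors that acts in the amnioserosa), so it belongs to either gene's surroundings. The nearest thresholded peaks of the optimal list were 10402 bp to the left and 4742 bp to the right.

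The cbt site had 3 lesser companions, all absent in every list. Site 2, 340 bp upstream of the cbt TSS and also in the ush intron, had signals of 91.3 and 128 in replicates 1 and 2 and 217 in the joint lists. Site 1, on the other side of cbt and 253 bp upstream of the TSS of CG4297, had 43.4, 69.0 and 109. Site 4, 2277 bp upstream of cbt, had 37.0, 45.0 and 81.7. At each of the 4 cbt sites replicate 2 was the higher of the replicates. The cbt window held no thresholded peak in any list, and the 4 absent peaks of the optimal list formed a run of 9836 bp.

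The windows of spen and Lk6 also held no thresholded peak in any list, which made 3 of the 7 genes without one. This was common over the genome. In the optimal list, 62 of the 112 protein-coding genes with an absent peak had no retained peak in their window. At spen, a nuclear protein gene of 44366 bp, the summit of site 1 was in a 5′ UTR, 1925 bp downstream of the nearest spen TSS. The signals of site 1 were 93.1 in replicate 1, 30.9 in replicate 2 and 117 in both joint lists. Site 2, in an intron, had 62.4 in replicate 1, 17.3 in replicate 2 and 66.9 in both joint lists. Its score was below 830 in replicate 2 (62) and in the conservative list (462), and it was absent in replicate 1 and in the optimal list. A further absent peak of the optimal list, at chr2L:166769-167092, overlapped the peak of site 2 with a signal of 20.8 at a score of 1000.

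The spen sites were the ones where replicate 1 was the higher replicate. The ratio of replicate 2 to replicate 1 was 0.332 at spen site 1, and 16 of the 18 sites had a ratio above 1. At tara sites 2, 3, 5, 6 and 7 and at spen site 2 the score reached 830 in a single replicate. That replicate was the higher one each time, so the direction of these ratios follows partly from the selection. Among retained peaks of the optimal list with a ranked peak in both replicates (2795 of 2845), the median ratio was 1.21 and 72.1% were higher in replicate 2. Of these, 6 (0.215%) had a ratio at or below that of spen site 1, and 3 (0.107%) at or below that of site 2. No shared scale is stated for the replicate lists, so each ratio is given beside those of the retained peaks. Across the 12 sites absent in all lists the ratio ran from 0.332 to 2.00, with a median of 1.23. For the same sites the joint signal was 0.945 to 1.01 times the sum of the replicate signals, with a median of 0.994 beside 0.996 for retained peaks.

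**Figure D2:**
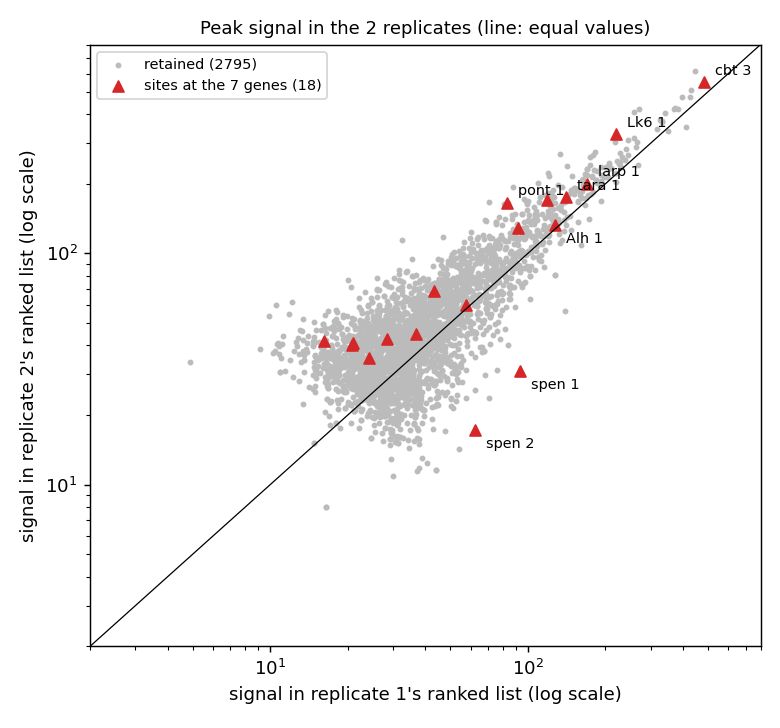
Signal in replicate 2 against replicate 1, on log scales, for the sites absent from thresholded lists at the 7 genes and for retained peaks. Each point is a peak. The spen sites lie on the replicate 1 side of the retained peaks, with 93.1 in replicate 1 and 30.9 in replicate 2 at site 1, while cbt site 3 is at the upper end in both.

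At Lk6, the kinase gene, there was 1 absent site, in an intron and 971 bp upstream of the nearest Lk6 TSS. Its peak in the optimal list was at chr3R:11760926-11761170. The signal was 220.1 in replicate 1, 328 in replicate 2 and 545 in the joint lists, at ranks 32, 18, 22 and 22 of the 4 ranked lists. It stood far from the retained peaks, with the nearest thresholded peaks 82785 bp to the left and 18573 bp to the right. At larp, the RNA-binding protein gene, there was also 1 site, in an intron and 332 bp upstream of a TSS, at chr3R:28326501-28326699. Its signal was 169.9 in replicate 1, 200.5 in replicate 2 and 368 in the joint lists. Larp differed from Lk6 in that 4 retained peaks lay in the same window, with signals of 88.0, 76.7, 55.8 and 42.6 in the optimal list, all lower than the absent one. The nearest of them was 2236 bp away.

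Tara had the most sites, 7, spread over 29428 bp from upstream of the gene into its introns. Site 1, 1131 bp upstream of the TSS, had signals of 140.35 in replicate 1, 175 in replicate 2 and 316 in the joint lists. Site 4, in an intron and 5831 bp upstream of the other tara TSS, had 118, 170.04 and 286. Both were absent in every list. The strongest peak of the tara window was nevertheless a retained one, at chr3R:16222375-16222621, with signals of 263 in replicate 1, 289 in replicate 2 and 553 in the optimal list, 2026 bp to the left of site 1.

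The other 5 tara sites were weaker. In replicate 1 their scores were below 830 at all 5 sites, with signals from 16.2 to 28.3, and in replicate 2 they were absent with signals from 35.3 to 42.5. In the joint lists the scores of sites 3, 5 and 7 fell on different sides of 830, and those of sites 2 and 6 were above it in both. Site 5 had a signal of 60.6 and was absent at a score of 1000 in the conservative list and below 830, at 780, in the optimal list. Site 3 held a pair of overlapping absent peaks in the conservative list, with signals of 39.5 and 36.3 at scores of 860 and 924, and the peak of 39.5 had a score of 56 in the optimal list. Sites 2 and 6, absent in both joint lists, had signals of 61.0 and 42.5. Site 7 had a signal of 56.6 and a score of 420 in the conservative list and of 1000 in the optimal list. The score and the signal thus did not order these peaks alike.

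At the chromatin genes Alh and pont, absent and retained peaks lay in the same window. The Alh site, in an intron and 589 bp upstream of an Alh TSS, was at chr3R:7108951-7109089 and had signals of 128, 133 and 265 in replicate 1, replicate 2 and the joint lists. The retained peaks of the Alh window had 114 and 76.1 in the optimal list. Pont site 1, 128 bp upstream of the pont TSS, was at chr3R:10261924-10262081 and had 83.0, 166 and 249. Pont site 2, 125 bp upstream of the TSS of the neighbour Nuak, had 57.3, 60.1 and 117. The retained peaks of the pont window had 70.8 and 52.5, both below the absent ones in the optimal list.

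**Figure D3:**
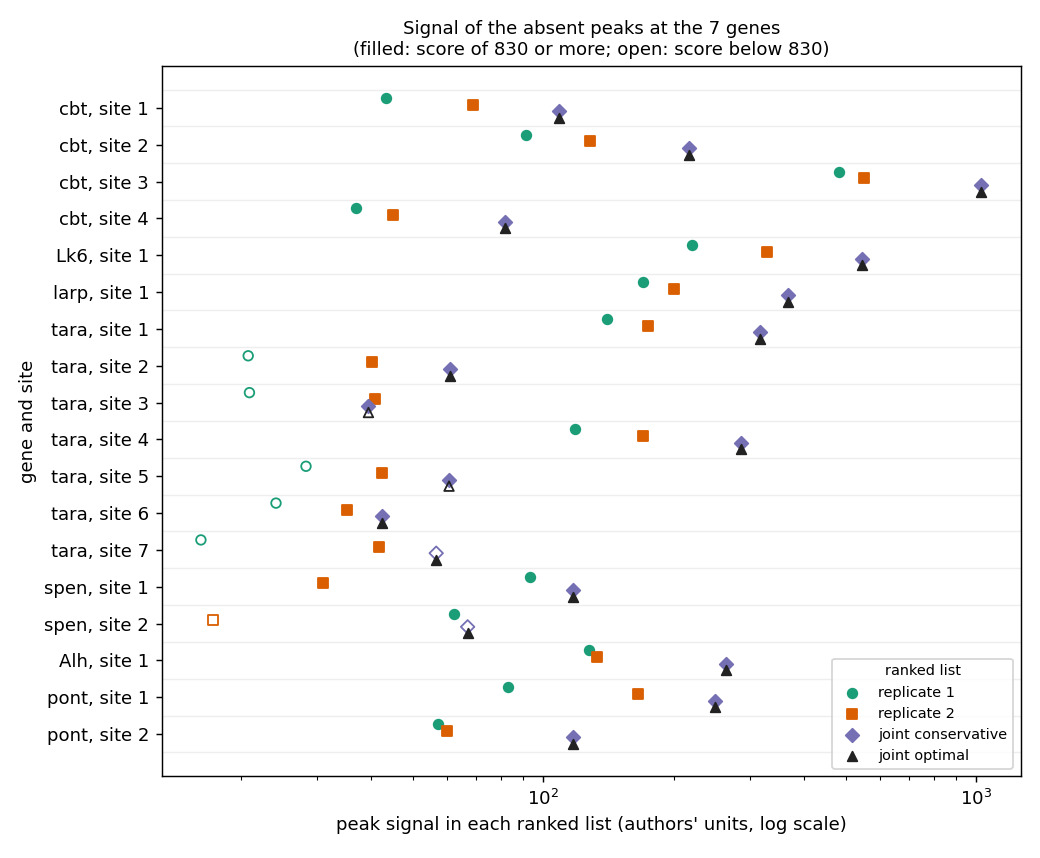
Signal of the absent sites at the 7 genes in the ranked lists of replicate 1, replicate 2 and both replicates, on a log scale. Points stand for single peaks, and no scale shared between lists is stated. The cbt site 3 is the highest in every list, with 483, 552 and 1028, and filled symbols mark a score of 830 or more, open ones a lower score.

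**Figure D4:**
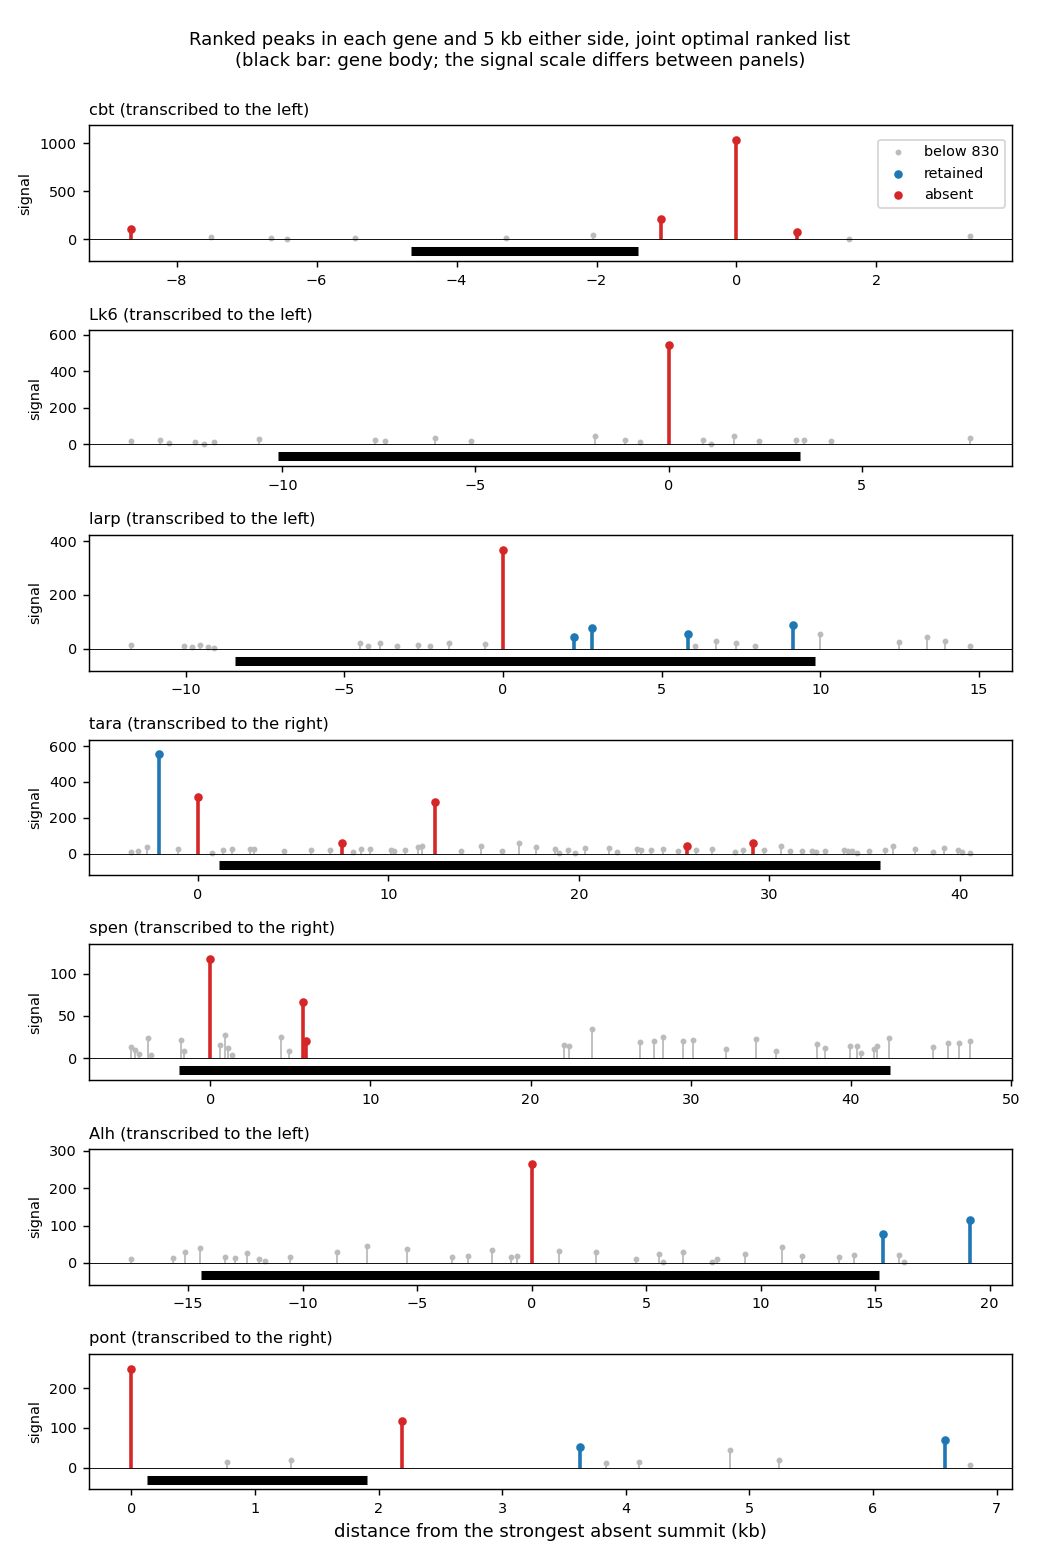
Ranked peaks of the joint optimal list in each gene and 5 kb on either side, by distance in kb from the strongest absent summit. Stem height is the signal, on a scale of its own in each panel, the black bar is the gene, and colours separate absent, retained and lower-scoring peaks. The strongest peak of the window is absent at cbt, Lk6, larp, spen, Alh and pont, and retained at tara (553 against 316).

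The members just inside the threshold were few. The lowest score of an absent peak at the 7 genes was 906 in replicate 1 (cbt site 4), 915 in replicate 2 (spen site 1), 860 in the conservative list (tara site 3) and 1000 in the optimal list. Just outside it in the optimal list were a tara peak of score 825 and signal 44.8 and a cbt peak of score 800 and signal 45.9. In the conservative list they were a pont peak of score 793 and signal 44.0 and a spen peak of score 792 and signal 16.3.

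The absent peaks of the genome were unevenly placed. Of the 68 absent peaks of the optimal list, 40 were on 3R, which was 5.99% of the strong peaks there, and 23 on 2L (4.27%). The X held 0 of 550 strong peaks, 3L held 3 of 623 and 2R held 0 of 520. Of the 7 genes, 5 are on 3R and 2 on 2L. They were selected for absent peaks that are among the 68, so their placing is no separate observation. The 68 peaks formed 37 runs with no retained peak between neighbours, of which 16 had more than 1 peak and held 47 peaks, and 7 of the 37 were at the listed genes. Absent and retained peaks had the same median width, 324 bp in the joint lists.

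The DNA of the absent sites was described over the 50 bp on either side of each summit, for all 17 absent peaks of the optimal list at the 7 genes. Median GC content was 33.7% beside 36.6% at the 50 absent peaks elsewhere and 32.7% at 2841 retained peaks, all on the main chromosomes. GAGAG was in 3 of 17 windows (17.6%), in 16% of the absent windows elsewhere and in 10.1% of retained windows. CGATA was in 2 of 17 (11.8%), 18% and 12.5%. At this length none of the 17 windows held TATCGATA (within which CGATA lies), CACACACA, CACGTG or GGTCACACT. Among retained windows TATCGATA was in 30 (1.06%), CACACACA in 34, CACGTG in 22 and GGTCACACT in 9. Tara sites 3 and 5 scored below 830 in the optimal list and are not among the 17. At the same length the site 5 window held CACACACA, and the site 3 window held none of the patterns. With 100 bp on either side, GAGAG was in 7 of 17 windows (41.2%), in 32% of the absent windows elsewhere and in 24.5% of retained windows. CGATA was then in 11.8%, 32% and 25.4%, CACACACA in 2 of the 17 and CACGTG in 1. Soft-masked repeat bases in the shorter windows touched 70.6% of the 17 and 71.3% of the retained windows. These matches are counts of letters, and 17 windows from 7 genes are not independent.

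Genes known to act with the 7 were looked up by the same rule. Of 22 such genes, 2 had an absent peak in some list, beside 132 of all 13968 protein-coding genes (0.945%). The 22 were chosen with earlier results of these data known, so nothing is read from their shares beside those of the genome. Trx, the trithorax histone methyltransferase gene, had one in all 4 lists, and Sin3A, which encodes a co-repressor scaffold, had 1 in replicate 2, 2 in the conservative list and none in the others. Retained peaks lay at 10 of the 22 in the optimal list, beside 33.1% of all protein-coding genes, with the strongest at ash1, a trithorax group histone methyltransferase gene, with a signal of 892. For pont, its partner in the remodelling complexes, rept, and the complex members Tip60 and dom had neither absent nor retained peaks. Ino80, the ATPase gene of another complex that holds pontin, had no absent peak and a retained peak in all 4 lists, with a signal of 166 in the optimal list.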

How the data were processed

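Peak lists of 2 ChIP-seq replicates were used, 8 lists on dm6, per the labels. The authors made them from alignments by IDR, per the file headers. The thresholded lists had 1 more input, of a kind the sources used here do not name, and the aligner and peak caller are not given in the sources used here. The score deposited by the authors is the scaled IDR, the signal is their own score for each peak, and the −log10 of the global IDR was deposited in the ranked lists. In each ranked list 8 columns matched no sample and were left out. Read depth is unknown, as the lists hold no read numbers. Other file types were not analysed here.

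Thresholded and ranked lists were paired by identical coordinates, summits and scores, and ranked peaks of score 830 or more without a match were absent. On simulated lists, 60 of 60 planted absent peaks were recovered. The planted peaks were deleted from a copy of the same list, so this checks the code and not peaks with shifted coordinates or changed scores. Genes came from Ensembl release 115 (BDGP6.54) and sequence from RefSeq. Scripts ran under Python 3.11.15 (pandas 2.3.3, numpy 2.4.6, scipy 1.17.1, matplotlib 3.10.9). The 7 genes, the 22 related genes and the patterns were chosen with earlier results of these data known. Besides the 7, the text names the genes nearest to the 3 strongest other absent peaks and any related gene with an absent peak. Neighbours of the sites, and other genes, were chosen after their values were seen. No test was made, since the peaks were selected on their values. Alternatives were a score of 1000, narrower windows, overlap in place of identical positions, and each replicate alone.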

Additional observations from a re-analysis of the deposited data

How the results depend on the processing

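Of 32 alternatives of the counts, 26 stayed within 1.5 times the value given. With summits in the gene body only, the absent peaks at the 7 genes were 6 in replicate 1, 10 in replicate 2, 10 in the conservative list and 10 in the optimal list, since in each list 4 peaks at cbt, 2 at pont and 1 at tara lie outside the gene. Leaving out each replicate in turn, which leaves the list of the other replicate, gave 13 to 17 absent peaks at the 7 genes and 34 to 52 over the genome for both joint lists. The lower genome count, 34 without replicate 2, is beside 70 in the conservative and 68 in the optimal list. As shares of the strong ranked peaks of each list, these were 2.34%, 2.54% and 2.33%. The cause of the lower count was not tested. Of 26 alternatives of the strongest absent signal per gene, 23 gave the same value, and in the gene body 2 more genes, cbt and pont, had no absent peak and so no value. Within 1000 bp the strongest was 217 at cbt and 286 at tara, and in the gene body it was 286 at tara. No paired analysis was possible because there is 1 group and no test. Why the peaks are missing from the thresholded lists was not tested.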

Other observations

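Outside the 7 genes, the strongest absent peaks of the optimal list were all on 3R. The strongest, at chr3R:24109064-24109339 and 141 bp upstream of the TSS of CG18428, had a signal of 320 at rank 96. The next was in trx, at chr3R:14283808-14283985, with 265 at rank 140. The third was in Kdm2, a gene for a JmjC-domain histone demethylase, at chr3R:9057381-9057704, with 153 at rank 426, and it had 2 weaker neighbours of 105 and 77.1.

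Some absent peaks lay side by side at places chosen after their values were seen. The longest run had 6 peaks on both sides of Rh5, a rhodopsin gene, with signals from 53.0 to 99.2. At InR, the insulin receptor gene, there were 3 peaks with signals of 63.6, 61.4 and 67.2. At crp, a bHLH transcription factor gene, the 3 peaks had 135, 61.2 and 86.8. A single absent peak, with 71.1, lay in the heat-shock noncoding RNA gene lncRNA:Hsromega. Another absent peak, with 75.9, lay 70 bp downstream of the TSS of the polyubiquitin gene Ubi-p63E, in a run of 2.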
